A study of Mus musculus with 3 samples.

Results

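Conventional CD4 T cells without Ccl5 made up 1669 of the 29754 cells that passed the filters in 3 single-cell RNA libraries of mouse blood mononuclear cells. They were chosen on measured UMIs (molecules counted by unique identifiers): at least 2 of Cd3d, Cd3e, Cd3g and Trac together and at least 1 of Cd4, with none of Cd8a, Cd8b1, Foxp3 or Ccl5. They also carried fewer than 2 UMIs of Zbtb16, Xcl1 and Klrb1c, fewer than 3 of Cd79a, Cd79b and Ms4a1, and less than 5% of UMIs from S100a8 and S100a9. The 3 groups were C57BL/6J mice at 12 h after Sham, after CLP with CMC, and after CLP with HDCA, and each group was 1 library. CMC was named for the CLP library and not for the Sham library, so CLP and CMC cannot be told apart in that comparison. The sources used here give no meaning for these abbreviations, no dose and no number of animals per library. With 1 library per group there was no test between groups: each interval below is at 95% and reflects counting error alone, and the spread between animals was not measured.

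CD4 T cells recognise peptides on MHC class II molecules, and most of those in blood are naive cells that travel between blood and lymph nodes. Naive cells enter nodes with the help of Ccr7 and leave them through S1pr1, while Ccl5 is a chemokine made by memory and effector T cells and natural killer cells. Type I interferons signal through Ifnar1 and interferon-gamma through Ifngr1 to STAT proteins, which switch on antiviral genes and guanylate-binding protein genes, with SOCS proteins as feedback inhibitors.

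Values given in threes are in the order Sham, CLP and HDCA+CLP. The members numbered 1098 in the Sham library, 338 in the CLP library and 233 in the HDCA+CLP library. Their summed UMIs were 7393839, 1714935 and 985017, with a median per cell of 6583.5, 4352 and 3866. No cell barcode of a member occurred in another library, although the libraries shared 17 to 34 barcodes by pair. The markers used to choose the cells were present in them by construction. Among T cell genes that the rule did not use, the signalling kinase Lck was found in 86.3%, 53.0% and 45.5% of members and Cd28, the costimulatory receptor, in 73.3%, 55.0% and 53.6%, against at most 5.67% and 0.667% of B cells in any library. NK cells held Lck in 78.8%, 59.0% and 53.9% and Cd28 in 7.79%, 10.9% and 10.9%, so Lck did not separate members from NK cells. At the edge of the rule, 1 member in the Sham, 12 in the CLP and 6 in the HDCA+CLP library sat at the minimum of 2 T cell UMIs, and 2, 3 and 4 further cells had 1 such UMI and were left out. Exactly 1 Cd4 UMI was carried by 51.3%, 70.7% and 71.2% of members.

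Markers of other cells were also present. The 12 neutrophil markers summed to 95.4 CPM (UMIs per 1000000 UMIs of the members) in the Sham, 4670 in the CLP and 5915 in the HDCA+CLP library, and all 12 were detected in each. The 10 monocyte markers summed to 252, 706 and 93.4 CPM, with 9, 9 and 6 of the 10 detected. At least 10 UMIs of a set of 8 further markers of monocytes, NK cells, B cells or platelets were found in 11, 12 and 3 members, and these mixed members had a median of 10694, 16128 and 8476 UMIs. Without them the monocyte markers summed to 46.4, 74.6 and 86.1 CPM. Values without mixed members, or the UMIs these held, are therefore given beside some lists and genes, but not for every gene they move. The 11 B cell markers summed to 398, 240 and 153 CPM and the 10 NK cell markers to 31.8, 92.1 and 69.0 CPM. What part these other cells' RNA has in the gene levels below was not tested, beyond the values without mixed members.

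As a share of T cells, the members were 35.6% (33.9% to 37.3%, exact Clopper-Pearson interval) of 3082 cells in the Sham library. They were 10.7% (9.62% to 11.8%) of 3166 cells in the CLP library and 16.7% (14.8% to 18.8%) of 1394 cells in the HDCA+CLP library. The order among T cells was kept after each cell was thinned to 2000 UMIs, at 18.0%, 7.54% and 12.8% of the 2957, 2639 and 1182 T cells deep enough. As a share of all filtered cells the members were 15.9%, 3.12% and 1.94%, so the order of CLP and HDCA+CLP depended on the denominator. The steps of the rule bore on these shares unequally. The requirement for no Ccl5 UMI removed 3.91% of the Cd4-positive, Foxp3-negative cells in the Sham library, 34.4% in the CLP library and 12.4% in the HDCA+CLP library. In B cells, which should lack the gene, a Ccl5 UMI was found in 3.22%, 26.7% and 6.96% of cells, at median depths of 4268, 3379.5 and 2860 UMIs. Of the cells so removed, with the other limits of the rule kept, 31, 80 and 12 had exactly 1 Ccl5 UMI and 8, 40 and 12 had at least 10. Before the Ccl5 step the shares of T cells were 37.3%, 16.3% and 19.1%. T cells with neither a Cd4 nor a Cd8 UMI were 27.3%, 49.1% and 43.8% of T cells, so fewer cells of a type and less detected RNA per cell cannot be told apart.

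**Figure D1:**
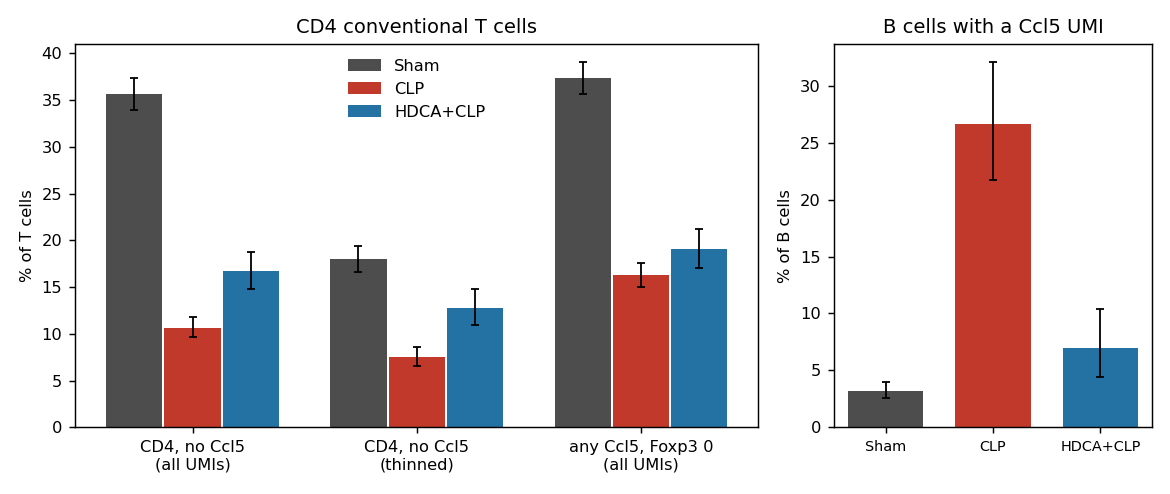
Share of T cells (left axis, %) that were CD4 cells without Ccl5, with all UMIs and after thinning to 2000 UMIs, and that were Cd4-positive and Foxp3-negative with any Ccl5; the right panel gives the share of B cells (%) with a Ccl5 UMI. Bars are 1 library each and error bars are exact 95% counting intervals: Sham is highest in all 3 left sets and CLP lowest, while the CLP library is highest in the right panel at 26.7%.

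CLP was set against Sham to describe these cells 12 h after the procedure. The interferon-response genes Iigp1, Gbp5, Ifit3 and Oasl2 were among the 12 genes ranked highest in the CLP library, and the surface proteins Clec2d and Thy1 and the adaptor Trat1 were among the 12 ranked lowest. A gene was measured when both libraries together held at least 50 of its UMIs. Of 8133 genes measured, 463 were at least 2-fold higher in CLP (5.69%) and 488 at least 2-fold lower (6.0%), 48.5% were higher by any amount, and the median log2 ratio was -0.02. Without mixed members the figures were 313 (3.95%) and 527 (6.65%) of 7923 genes.

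The promoters of 3 interferon-response genes that were higher in CLP, and of Clec2d, which led the genes lower in CLP by the interval bound nearest 0, are shown because members of the first group are textbook targets of interferon-activated factors. Each is 250 bases before to 50 bases after the transcription start on its gene's strand, from RefSeq (GRCm38.p6, where the submitters' processing notes name mm39). Capitals mark the interferon-stimulated response element searched as GAAANNGAAA on both strands. The 4 regions are chr19:34583279-34583578 (Ifit3), chr3:142620413-142620712 (Gbp2), chr3:142496684-142496983 (Gbp5) and chr6:129180365-129180664 (Clec2d), all on the plus strand.
Ifit3: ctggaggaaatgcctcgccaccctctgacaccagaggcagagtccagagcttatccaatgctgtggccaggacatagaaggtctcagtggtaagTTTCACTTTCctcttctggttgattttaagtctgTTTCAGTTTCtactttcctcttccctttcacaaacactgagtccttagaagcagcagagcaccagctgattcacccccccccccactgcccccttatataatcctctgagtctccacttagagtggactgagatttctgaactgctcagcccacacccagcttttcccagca
Gbp2: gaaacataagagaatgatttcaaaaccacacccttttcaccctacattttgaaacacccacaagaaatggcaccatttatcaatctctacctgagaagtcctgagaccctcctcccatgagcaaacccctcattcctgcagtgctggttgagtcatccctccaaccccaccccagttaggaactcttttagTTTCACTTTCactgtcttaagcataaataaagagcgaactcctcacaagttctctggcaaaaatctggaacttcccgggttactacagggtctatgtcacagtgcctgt
Gbp5: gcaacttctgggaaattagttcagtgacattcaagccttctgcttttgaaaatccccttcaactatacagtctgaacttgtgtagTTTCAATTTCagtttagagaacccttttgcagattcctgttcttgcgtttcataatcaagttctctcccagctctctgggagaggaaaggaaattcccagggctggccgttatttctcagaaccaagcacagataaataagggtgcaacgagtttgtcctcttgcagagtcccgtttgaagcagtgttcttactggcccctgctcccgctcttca
Clec2d: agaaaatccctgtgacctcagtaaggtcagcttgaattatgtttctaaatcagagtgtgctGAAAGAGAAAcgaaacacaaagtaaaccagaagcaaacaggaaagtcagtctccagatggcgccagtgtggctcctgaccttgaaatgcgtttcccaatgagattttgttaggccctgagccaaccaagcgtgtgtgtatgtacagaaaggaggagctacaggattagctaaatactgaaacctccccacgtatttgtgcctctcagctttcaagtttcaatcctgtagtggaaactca
Ifit3 held 2 matches, the first starting 156 bases before the transcription start, and Gbp2 and Gbp5 held 1 each, 59 and 165 bases before it. Clec2d held 1 match as well, 189 bases before its start. The promoters of Dtx1, Dapl1, Trat1, Tesc, Oxct1, Trim59, Evl, Rasgrp1 and Fam78a, also among the 12 genes ranked lowest in CLP, held none. The promoters of Oasl2, Irf7, Gch1 and Ctla4, all higher in CLP, held none, and that of Socs1 held 2. Over the whole table of 32851 promoters 3.44% held a match, and 8.30% held the gamma-activated sequence searched as TTCNNNGAA. That sequence had 2 matches in Gbp5 and none in Ifit3, Gbp2 or Clec2d. Matches of the motifs may overlap. Only 47 of the 60 type I interferon genes and 19 of the 30 interferon-gamma genes described below had a promoter in the table. These lists were made of known interferon targets, so a comparison of them with all promoters cannot serve as a test and is not given. A match is a description of the letters and not a binding site.

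At the level of receptors, Ifngr1, the ligand-binding chain of the interferon-gamma receptor (ENSMUSG00000020009), stood at 113 CPM (105 to 120, exact Poisson interval) in Sham, 407 (377 to 438) in CLP and 399 (360 to 440) with HDCA. The log2 ratio of CLP to Sham was 1.85 (1.71 to 2.0), and the CLP and HDCA+CLP intervals overlapped. Ifnar1, a chain of the type I interferon receptor, stood at 45.4, 63.6 and 72.1 CPM, a log2 ratio of 0.48 (0.16 to 0.80) for CLP. Of the 26 receptor, JAK, STAT and SOCS genes measured, 9 were at least 2-fold higher in CLP and none at least 2-fold lower, with a median log2 ratio of 0.58. Among the feedback inhibitors, Socs3 stood at 57.1, 255 and 247 CPM and Socs1 at 37.6, 78.1 and 103 CPM, so both were lowest in Sham. Mixed members held 128 of the 437 CLP UMIs of Socs3. The phosphatase Ptpn2, which dephosphorylates JAK and STAT proteins, was lower in CLP, at 55.7, 35.6 and 55.8 CPM.

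Iigp1, an interferon-inducible GTPase of cell-autonomous defence (ENSMUSG00000054072), stood at 14.6 CPM (12.0 to 17.6) in Sham, 120 (104 to 137) in CLP and 154 (131 to 181) with HDCA, and was found in 5.65%, 29.6% and 31.3% of members. Its log2 ratio of CLP to Sham was 3.03 (2.69 to 3.38). The guanylate-binding proteins Gbp2, at 28.7, 147 and 138 CPM, and Gbp5, at 8.39, 62.4 and 66.0 CPM, had log2 ratios of 2.36 and 2.90. Sham lay far below the other libraries for each of these genes, and the intervals of CLP and HDCA+CLP overlapped. Of 21 interferon-gamma response genes measured, 16 were at least 2-fold higher in CLP, none was at least 2-fold lower, and the median log2 ratio was 1.5; without mixed members it was 15 of 19 and 1.4. Gch1, which starts synthesis of the nitric oxide synthase cofactor and is outside the list, stood at 5.95, 53.6 and 34.5 CPM. Gbp8 was the 1 member of the list with a lower value, at a log2 ratio of -0.35 (-0.86 to 0.12).

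In the type I interferon list, 29 of 54 genes measured were at least 2-fold higher in CLP and none at least 2-fold lower, with a median log2 ratio of 1.13. Without mixed members it was 23 of 52 genes and a median of 0.79. Ifit3, a tetratricopeptide antiviral protein, stood at 16.4, 110 and 113 CPM, although its close paralog Ifit3b may share its reads. Oasl2, of the oligoadenylate synthetase family, stood at 8.39, 51.9 and 64.0 CPM, and Irf7, the transcription factor that amplifies the response, at 30.2, 127 and 155 CPM. Ly6a, the surface antigen Sca-1, stood at 159 CPM (150 to 168), 678 (640 to 718) and 912 (853 to 973), and its 3 intervals did not overlap. Not all members followed: Ifi203 stood at 333, 209 and 247 CPM, Ms4a4b at 1496, 1037 and 1452 CPM and Sp100 at 291, 211 and 260 CPM, all lowest in CLP. The membrane restriction factors Ifitm1, Ifitm2 and Ifitm3 had log2 ratios of 4.65, 4.93 and 3.91, but their CPM in CLP members was under 20% of that in the highest of neutrophils, B cells, monocytes and NK cells of that library, and the part of free RNA was not tested.

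Across single cells, a larger share of cells lay above the Sham median of each interferon list in CLP and HDCA+CLP than in Sham. In cells thinned to 2000 UMIs the shares above it were 44.6%, 57.3% and 78.4% for the type I list. For the interferon-gamma list they were 41.5%, 73.4% and 79.3%. With each cell thinned to 2000 UMIs, the type I list took a median of 0.70% of a cell's UMIs for Sham, 0.80% for CLP and 1.0% for HDCA+CLP cells, and the 5th percentile was 0.35%, 0.25% and 0.50%. The Sham 95th percentile, 1.35%, was exceeded by 4.57% of Sham, 16.7% (12.9% to 21.2%) of CLP and 24.2% (18.8% to 30.3%) of HDCA+CLP cells. For the interferon-gamma list the medians were 0.05%, 0.15% and 0.20%, and 4.30%, 26.6% and 32.6% of cells exceeded the Sham 95th percentile of 0.25%. The lower quartile of the type I list was 0.55%, 0.50% and 0.75%. The lower type I values in CLP were thus below those of Sham while the median and upper tail were above. A share of UMIs is weighted to abundant genes: Ms4a4b, lower in CLP, held 11059 of the 54914 Sham UMIs of the measured type I genes. In CLP it held 1779 of 17846. The part of single genes in these percentiles was not tested.

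**Figure D2:**
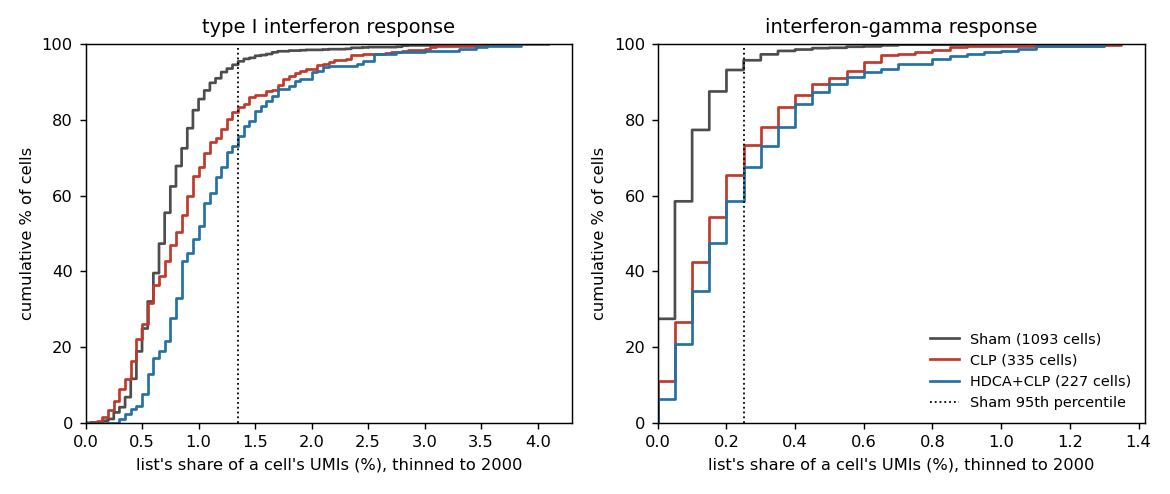
Cumulative share of CD4 cells (y axis, %) by the share of a cell's UMIs in each interferon list (x axis, %), with cells thinned to 2000 UMIs; lines are the libraries and the dotted line is the Sham 95th percentile. In the left panel CLP lies left of Sham at the lower quartile (0.50% against 0.55%) and right of it at the median (0.80% against 0.70%). HDCA+CLP lies right of Sham throughout most of its range.

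Of the inhibitory receptors, Ctla4, the CD28 antagonist (ENSMUSG00000026011), stood at 21.6 CPM (18.4 to 25.3) in Sham, 117 (101 to 134) in CLP and 121 (100 to 145) with HDCA. The log2 ratio of CLP to Sham was 2.43 (2.12 to 2.74). It was found in 3.84%, 14.6% and 15.4% of cells thinned to 2000 UMIs and in 8.47%, 24% and 23.2% of unthinned cells, against 0.227%, 4.33% and 1.90% of unthinned B cells. Cd200, an inhibitory ligand, stood at 33.9, 114 and 108 CPM. Izumo1r stood at 87.4, 46.1 and 62.9 CPM and Cd96 at 49.6, 25.1 and 32.5 CPM, so the 11 genes measured of this list did not share a direction and their median log2 ratio was 0.02. Since Ctla4 is also abundant in regulatory T cells, whose Foxp3 can escape detection, the regulatory T cell list, to which Ctla4 itself belongs, is given beside it. Of its 10 measured genes 2 were at least 2-fold higher, Ctla4 and the costimulatory receptor Tnfrsf4 (11.2, 32.1 and 56.9 CPM), and none 2-fold lower, and Ikzf2, which encodes Helios, stood at 30.7, 21.6 and 47.7 CPM. Cd274, which encodes PD-L1, stood at 7.30, 49.6 and 31.5 CPM, but was found in 6.27% of CLP members and 8.80% of CLP B cells at 2000 UMIs. Mixed members held 28 of its 85 CLP UMIs and 0 of its 31 HDCA+CLP UMIs.

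Among the genes lower in CLP, Thy1, a glycolipid-anchored protein of the T cell surface (ENSMUSG00000032011), stood at 225 CPM (214 to 236) in Sham, 53.6 (43.2 to 65.8) in CLP and 110 (89.9 to 132) in HDCA+CLP. The log2 ratio of CLP to Sham was -2.07 (-2.39 to -1.77), and HDCA+CLP lay between the other libraries with no overlap of intervals. Clec2d, a ligand of inhibitory NK cell receptors, stood at 196, 41.4 and 53.8 CPM (log2 ratio -2.25). Dtx1, a ubiquitin ligase that acts on Notch, stood at 79.1, 17.5 and 31.5 CPM, and Chd3, a chromatin remodeller, at 324, 106 and 137 CPM. Oxct1, of ketone body use, stood at 65.3, 19.2 and 23.4 CPM. For each of these genes Sham was the highest library. The costimulatory receptor Cd27 stood at 160, 76.4 and 83.2 CPM and Cd52 at 1882, 1112 and 1099 CPM.

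Genes of T cell receptor signalling were mostly lower in CLP: 23 of 30 measured were lower, 4 of them at least 2-fold, and 1 was at least 2-fold higher, with a median log2 ratio of -0.29. Trat1, an adaptor that stabilises the receptor, stood at 140, 46.1 and 64.0 CPM, and Rasgrp1, which couples the receptor to Ras, at 164, 58.9 and 69.0 CPM. Themis, a scaffold of receptor signalling, stood at 112, 39.1 and 60.9 CPM. These 3 positive regulators or adaptors were highest in Sham. The higher genes of the list include negative regulators: Cblb, a ubiquitin ligase that restrains activation, stood at 116, 261 and 293 CPM, and the phosphatase Ptpn22 at 75.7, 145 and 200 CPM. Per cell, the list took a median of 0.50%, 0.35% and 0.45% of UMIs.

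**Figure D3:**
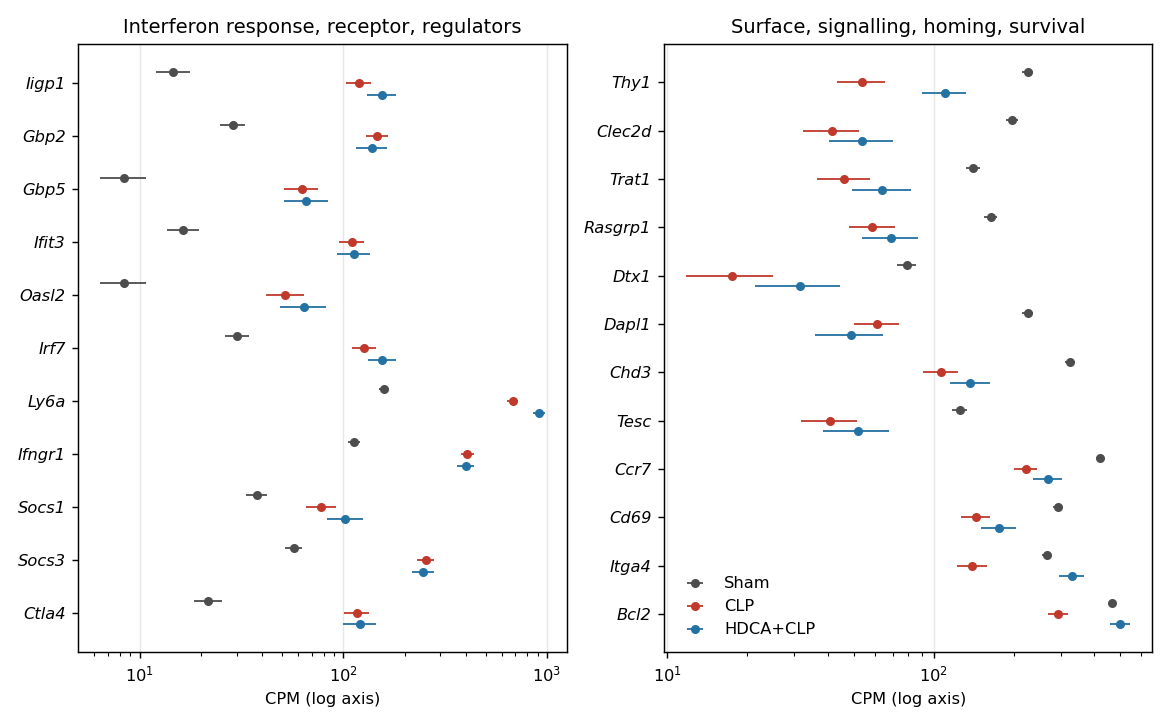
Level of named genes (x axis, CPM of the members' summed UMIs, log axis) in each library; points are libraries and bars are exact 95% Poisson intervals. Interferon-response genes in the left panel lie lowest in Sham, with CLP and HDCA+CLP close together except for Ly6a, while in the right panel Sham lies above CLP for all 12 genes and Itga4 and Bcl2 are back at or above the Sham level in HDCA+CLP.

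Most receptors of the homing and egress list were lower in CLP, though few by 2-fold. Ccr7 stood at 418 CPM (404 to 433), 221 (199 to 244) and 267 (236 to 301), and S1pr1 at 394 (380 to 409), 274 (250 to 300) and 277 (245 to 312). Sham was highest for both, and the CLP and HDCA+CLP intervals overlapped. In thinned cells Ccr7 was found in 53.8%, 33.1% and 38.3%. Itgb7, the integrin chain for gut homing, stood at 190, 95.6 and 140 CPM. Cd69, an early activation antigen that opposes S1pr1, stood at 293, 143 and 176 CPM, so both members of that pair were lower in CLP. Cxcr3, a receptor of T helper 1 cells, was higher, at 9.47, 34.4 and 40.6 CPM. Of 17 genes measured, 12 were lower in CLP, 1 of them at least 2-fold, and the median log2 ratio was -0.52. At least 2-fold higher were 3. Over all genes measured 6.0% were at least 2-fold lower and 5.69% at least 2-fold higher. Without mixed members 1 of 16 was at least 2-fold higher and none at least 2-fold lower, with a median of -0.64.

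The factors of the naive state moved less. Of 20 measured, 17 were lower in CLP, 2 of them at least 2-fold, with a median log2 ratio of -0.29. Lef1 stood at 620, 506 and 603 CPM, Tcf7 at 572, 548 and 476 CPM, Klf2, which drives S1pr1, at 1249, 1140 and 989 CPM, and Il7r, the survival cytokine receptor, at 1020, 954 and 1130 CPM. The log2 ratios of CLP to Sham were -0.29 for Lef1, -0.06 for Tcf7, -0.13 for Klf2 and -0.10 for Il7r, which turned to 0.0055 without mixed members. Dapl1, typical of naive T cells, differed more, at 225, 61.2 and 48.7 CPM, and Bcl11b, a T lineage factor, stood at 418, 217 and 291 CPM.

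Memory and effector genes gave a divided picture. Of 23 measured, 16 were at least 2-fold higher in CLP, with a median log2 ratio of 1.22 that was 0.98 without mixed members and 0.33 in naive-like members alone, where S100a4, a gene of the list, is absent by the cut. As a sum of UMIs per cell the list ran the other way, although 20 of its 23 genes were higher in CLP. It took a median of 0.85%, 0.55% and 0.50% of UMIs in thinned cells, and 46.8%, 20.6% and 13.2% of cells lay above the Sham median. This sum is weighted to 1 gene: Tmsb10 held 47956 of the list's 66713 Sham UMIs and 6702 of its 16144 CLP UMIs over all members. The per-cell share without Tmsb10 was not computed. S100a4 stood at 56.8, 345 and 218 CPM but was found in 4.01%, 9.17% and 5.58% of members against 2.16%, 8.67% and 1.90% of B cells. S100a6, at 81.4, 671 and 560 CPM, was found in 20% of CLP members and 25% of CLP B cells at 2000 UMIs, so its share in members did not exceed that in B cells. Mixed members held 217 of 591 CLP UMIs of S100a4 and 433 of 1151 of S100a6. In HDCA+CLP they held 36 of 215 and 57 of 552, so the order of CLP and HDCA+CLP for these 2 genes may rest on mixed members. Tmsb10, which encodes an actin-binding peptide, was lower, at 6486, 3908 and 3264 CPM, as was Cd40lg, the helper ligand for B cells, at 31.2, 4.66 and 8.12 CPM. A cut on thinned UMIs of 4 state genes, S100a4, Ccr7 and Lef1 among them, placed 789 of 1093 cells (72.2%) in a naive-like range in Sham, 180 of 335 (53.7%) in CLP and 144 of 227 (63.4%) with HDCA, with 22, 18 and 9 cells in a memory-like range. This range is not a cell type, and 182, 80 and 41 cells sat 1 UMI below its cut.

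Within the naive-like cells the interferon genes kept their ratios. Iigp1 stood at 13.6, 145 and 156 CPM there, a log2 ratio of CLP to Sham of 3.41 (2.97 to 3.86), Gbp2 at 26.6, 167 and 136 CPM, and Irf7 at 26.1, 136 and 170 CPM. Ifngr1 stood at 111, 445 and 431 CPM and Ctla4 at 17.4, 100 and 84.3 CPM. Thy1 stood at 208, 33.1 and 55.6 CPM, a log2 ratio of -2.65 (-3.26 to -2.11). The higher interferon genes and the lower Thy1 were therefore present in cells of the naive-like range, which excludes S100a4.

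Cytokine genes were near the floor. Ifng had 5, 9 and 7 UMIs over all members, Il2 10, 0 and 0, Il4 2, 0 and 0, Il10 0, 7 and 1, and Il17a none in any library. A count of 0 allows up to 0.406, 1.75 and 3.05 CPM. Of the lineage factors, Gata3 stood at 48.0, 33.2 and 28.4 CPM and Tbx21 had 5, 2 and 9 UMIs. Among receptors that bile acids are known to bind, Nr1h4 and Gpbar1 had no UMI in any library and Vdr had 1, 4 and 1.

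Metabolic, stress and housekeeping lists are given by their medians. Hif1a, the hypoxia-inducible factor, stood at 61.9, 264 and 312 CPM, but the 18 glycolysis genes measured had a median log2 ratio of 0.31 and 1 of them was at least 2-fold higher. Of 22 glucocorticoid response genes measured, 5 were at least 2-fold higher in CLP and 1 at least 2-fold lower, with a median log2 ratio of 0.67. Fkbp5, a glucocorticoid target, stood at 34.2, 89.8 and 116 CPM, whereas Tsc22d3, another, stood at 481, 422 and 384 CPM and the receptor Nr3c1 at 77.2, 70.6 and 79.2 CPM. None of 39 oxidative phosphorylation genes and none of 52 ribosomal protein genes passed 2-fold, and their medians were 0.04 and -0.05. Of 12 chaperone genes, 9 were lower in CLP, with Hsp90ab1 at 1148, 662 and 947 CPM. The MHC class I list had a median of 0.34, with Tap1, the peptide transporter, at 79.3, 187 and 205 CPM.

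Several of the highest ratios rested on a few cells. Hmox1, heme oxygenase, stood at 0.676, 320 and 3.05 CPM, and mixed members held 542 of its 549 CLP UMIs. They held 997 of 1047 CLP UMIs of Wfdc17 and 130 of 131 of Fcgr2b, the inhibitory Fc receptor. Without mixed members the log2 ratio of CLP to Sham was 4.05 (1.66 to 7.35) for Hmox1 in place of 8.89 and 2.93 (2.26 to 3.63) for Wfdc17 in place of 6.12. For Fcgr2b it was 1.24 (-4.64 to 5.51) in place of 5.56, and its interval included 0, with 1 CLP UMI left. All 209 CLP UMIs of Ccl4 lay in mixed members. Ccl4 belongs to the cytotoxic effector list, of which 8 of 11 measured genes were at least 2-fold higher in CLP and 1 at least 2-fold lower, with a median log2 ratio of 2.05 that was 1.68 without mixed members. Gzmb, a granzyme of that list, stood at 0.406, 125 and 40.6 CPM, under 20% of its level in the highest of the other cells. A single CLP member held 126 of its 215 CLP UMIs, and mixed members held 36. For Iigp1, Gbp2, Ifit3 and Ctla4 mixed members held 20 of 205, 36 of 252, 18 of 189 and 13 of 200 CLP UMIs.

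HDCA+CLP was set against CLP, which shares the CLP library with the comparison above. The members of these libraries were close for most interferon targets, and the clearest differences were higher Itga4, Bcl2 and Thy1 with HDCA. Of 5182 genes measured, 52 were at least 2-fold higher (1.0%) and 111 at least 2-fold lower (2.14%), 62.4% were higher by any amount and the median log2 ratio was 0.10. Without mixed members 49 (1.02%) were higher and 11 (0.228%) lower of 4820 genes, so the number lower by 2-fold moved with the 12 mixed CLP and 3 mixed HDCA+CLP members.

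Itga4, the alpha-4 integrin chain that binds VCAM-1 and, with Itgb7, MAdCAM-1 (ENSMUSG00000027009), stood at 266 CPM (254 to 278) in Sham, 139 (122 to 158) in CLP and 329 (294 to 367) with HDCA. The log2 ratio of HDCA+CLP to CLP was 1.24 (0.99 to 1.49), 1.26 without mixed members and 1.4 in naive-like members, and HDCA+CLP lay above Sham as well. Bcl2, which opposes apoptosis (ENSMUSG00000057329), stood at 464 CPM (448 to 479), 293 (268 to 319) and 498 (455 to 545). Its log2 ratio of HDCA+CLP to CLP was 0.77 (0.59 to 0.95), and the HDCA+CLP interval included the Sham level. Thy1 had a log2 ratio of 1.03 (0.62 to 1.45) and stayed below Sham. In naive-like members its ratio was 0.75 with an interval that included 0 (-0.04 to 1.55), and 34 of its HDCA+CLP UMIs lay in the 9 memory-like cells. Gstp3, a glutathione transferase, stood at 53.0, 32.1 and 74.1 CPM, and Kcnq1ot1, an imprinted noncoding RNA, at 172, 84.6 and 171 CPM. Rb1, the retinoblastoma protein that restrains entry into the cell cycle, stood at 27.1, 21.6 and 52.8 CPM.

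The T cell receptor signalling list was higher for 22 of 29 genes, with a median log2 ratio of 0.23 and none past 2-fold. Ptprc, the phosphatase CD45, stood at 891, 616 and 803 CPM and Csk, an inhibitory kinase, at 121, 63.6 and 94.4 CPM. Chaperone genes were higher for 9 of 11, again none past 2-fold. Over all genes 62.4% were higher, and the medians of 0.23 and 0.21 stand beside 0.10 for all genes.

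Interferon targets had similar or slightly higher levels with HDCA. Of 52 type I genes measured, 38 were higher, 1 at least 2-fold and 3 at least 2-fold lower, with a median log2 ratio of 0.23, and of 20 interferon-gamma genes 14 were higher with a median of 0.15. Over all genes 62.4% were higher, with a median of 0.10, so the interferon-gamma values lie near those of all genes. The type I median was 0.11 with median size factors and -0.00059 with cells of any Ccl5 level included. Ly6a had a log2 ratio of 0.43 (0.30 to 0.55). Ddx60, an antiviral helicase, stood at 19.3, 18.7 and 50.8 CPM and was thus at the Sham level in CLP and higher with HDCA. The intervals of the log2 ratio included 0 for Gbp2 (-0.40 to 0.22), Ifit3 (-0.32 to 0.38), Ifngr1 (-0.21 to 0.15) and Socs3 (-0.28 to 0.18), which does not show equal levels. The Socs3 ratio depends on mixed members, which held 128 of its 437 CLP UMIs and 10 of its 243 HDCA+CLP UMIs. In naive-like members it was 0.29 (-0.03 to 0.61).

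Cell cycle genes were higher with HDCA for 12 of 12 measured, 7 of them at least 2-fold, with a median log2 ratio of 1.06. Without mixed members 2 of 9 were at least 2-fold higher and the median was 0.67. Pclaf, which binds PCNA at replication forks, stood at 4.06, 21.0 and 82.2 CPM and Birc5, of the mitotic spindle, at 7.03, 24.5 and 67.0 CPM. These genes came from few cells: 3 members in Sham, 5 in CLP and 8 with HDCA carried at least 10 UMIs of 12 cell cycle markers. Without these cells the median was -0.00037. The regulatory T cell list was higher for 5 of 6 genes, with a median of 0.56. The memory and effector list had a median of -0.26 that turned to 0.09 without mixed members, and the cytotoxic list of -0.85 over 6 genes that was -0.35 over 4.

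On the lower side, Fth1 and Ftl1, the ferritin chains, stood at 1241, 4410 and 1190 CPM and at 870, 1732 and 799 CPM. Their log2 ratios of HDCA+CLP to CLP, -1.89 and -1.12, were -0.14 and -0.14 without mixed members, which held 5666 of 7562 and 1629 of 2971 CLP UMIs. Wfdc17 turned from -3.12 to 1.04. Malat1, a nuclear noncoding RNA, stood at 21692, 20938 and 30453 CPM, with a log2 ratio of 0.54 (0.52 to 0.56).

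**Figure D4:**
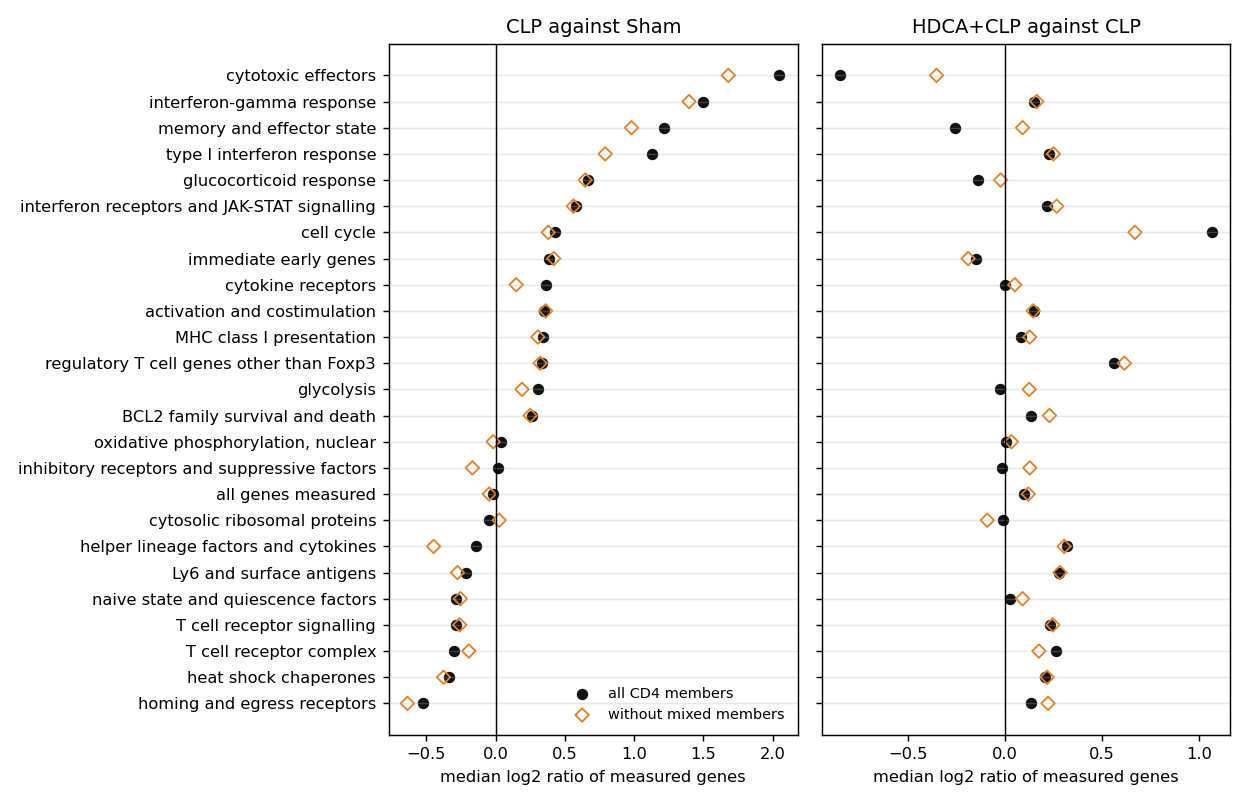
Median log2 ratio of the measured genes of each list (x axis) for CLP against Sham (left) and HDCA+CLP against CLP (right); filled circles are all CD4 members and open diamonds the same without mixed members. On the left, cytotoxic effectors (2.05), interferon-gamma (1.5), memory and effector (1.22) and type I interferon genes (1.13) lie highest and homing receptors lowest (-0.52). On the right, cell cycle genes stand at 1.06 and cytotoxic effectors at -0.85.

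CD8 T cells chosen by the same rule (685, 477 and 330 cells) were set beside the CD4 cells to see where the ratios differed, with intervals for counting error only. Ratios of CLP to Sham overlapped in their intervals for Thy1 (log2 -2.07 in CD4 and -2.10 in CD8 cells), Clec2d (-2.25 and -2.31) and Gbp2 (2.36 and 2.65). Hif1a differed more in CD4 cells, with log2 ratios of 2.09 and 0.66 and a difference of 1.43 (1.10 to 1.77), and so did Lgals1, a galectin, with 1.86 and 0.28. For Lgals1 the CD4 ratio was 0.84 (0.51 to 1.16) in naive-like members, and 1 CLP cell held 119 of the 705 CLP UMIs. Ly6a had the larger ratio in CD8 cells, with 2.09 and 3.85, from a CD8 level of 21.9 CPM in Sham. Ccr7 was lower by more in CD4 cells, at -0.92 against -0.33.

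For HDCA+CLP against CLP, Bcl2 had a log2 ratio of 0.77 in CD4 cells and 0.11 in CD8 cells, a difference of 0.65 (0.42 to 0.89). Itga4 had 1.24 and 0.76, Thy1 1.03 and 0.39 and Gstp3 1.21 and 0.27. With 1 library per group, differences between these classes were not tested over animals. The Foxp3-positive cells by the same rule numbered 63, 11 and 11 and were too few to set beside them.

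**Figure D5:**
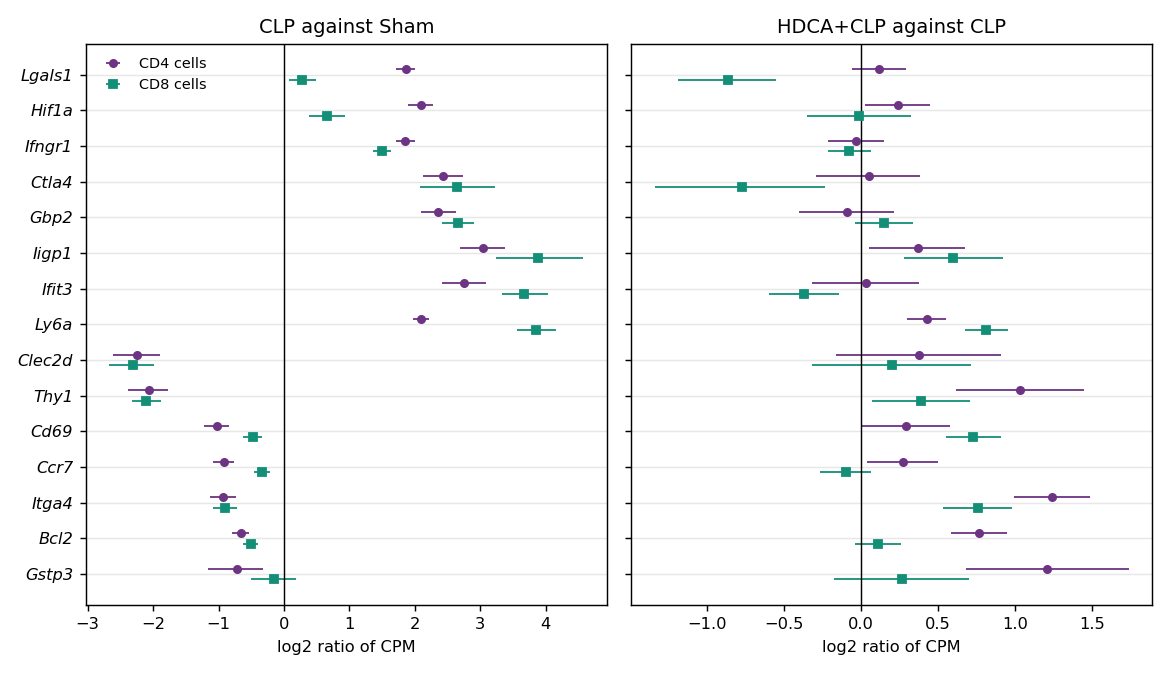
Log2 ratio of CPM (x axis) in CD4 cells (circles) and CD8 cells (squares) for CLP against Sham (left) and HDCA+CLP against CLP (right); bars are exact 95% counting intervals. Lgals1, Hif1a and Ly6a lie apart between classes on the left, and Bcl2 and Itga4 on the right, whereas Thy1 and Clec2d coincide on the left.

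Of the T cell receptor beta variable segments, Trbv2 had the most UMIs in each library, at 18.7% of 363, 18.9% of 37 and 21.4% (10.3% to 36.8%) of 42 UMIs. Segment use was not compared between libraries.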

How the data were processed

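Blood mononuclear cells were profiled with 10x Genomics 3′ v3 chemistry, per the labels' protocols. The deposited files hold UMI counts per gene and cell barcode, made with Cell Ranger 5.0.1 per the file headers. Seurat 4.0.6, R 4.0.3 and the mm39 build appear in the submitters' processing notes without a role. Counts total 42427093 (Sham), 87031721 (CLP) and 95178381 (HDCA+CLP) UMIs over 7159, 11387 and 12205 barcodes.

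A cell was kept with 500 or more UMIs, 200 or more genes and no more than 10% of UMIs from mitochondrial genes (6891, 10840 and 12023 cells). The members and gene lists were chosen with earlier results of these data known. UMIs were summed over the members of a library and divided by their total. Intervals are exact Poisson for CPM, exact conditional binomial for log2 ratios and exact Clopper-Pearson for shares, at 95%; UMIs of a cell are treated as independent molecules. Cells were thinned without replacement. Doublets were scored against summed cell pairs and removed only as an alternative. B cells had at least 3 UMIs of Cd79a, Cd79b and Ms4a1 and none of the T cell genes.

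Named genes were the 12 highest and 12 lowest per comparison by the interval bound nearest 0, among genes of at least 50 UMIs over both libraries and 50 CPM in the higher. Rule genes, mitochondrial, ribosomal, globin, receptor-segment, immunoglobulin and predicted genes were left out. So were genes under 20% of the level in neutrophils, B cells, monocytes or NK cells. Up to 3 genes per list and direction and 25 fixed genes were added. The lists number 24. Cell type markers, cytokines and lineage factors below these limits are given as values. Ratios were checked on simulated counts. Python 3.11.15, numpy 2.4.6, scipy 1.17.1 and pandas 2.3.3 were used. Values of some genes under these rules are not reported here.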

Additional observations from a re-analysis of the deposited data

How the results depend on the processing

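No paired analysis was possible because each group has 1 library. Alternatives added after seeing the data are those without mixed members, without cycling members and with any Ccl5. Shares of T cells in the Sham, CLP and HDCA+CLP libraries were 18.0%, 7.54% and 12.8% when thinned, 17.4%, 3.13% and 4.81% with at least 2 Cd4 UMIs, and 15.5% (CLP) and 19.0% (HDCA+CLP) with any Ccl5. The order of the libraries was the same in each of these settings.

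For CLP against Sham, genes at least 2-fold higher numbered 169 with at least 200 UMIs over both libraries, 1851 with at least 1 UMI in each, 182 thinned and 246 in naive-like members; those lower numbered 156, 931 and 320 in the first 3 of these. For HDCA+CLP against CLP, genes higher numbered 27 with median size factors, 4 with at least 200 UMIs, 986 with at least 1 UMI in each, 18 with 2 Cd4 UMIs, 16 thinned and 26 in naive-like members. Genes lower numbered 28 with at least 200 UMIs, 664 with at least 1 UMI in each, 33 with doublets removed, 30 with 2 Cd4 UMIs, 15 thinned, 13 in naive-like members and 11 without mixed members. Higher minimums test fewer genes by construction; the cause of the other shifts was not tested.

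The memory and effector median for CLP against Sham was 0.77 as a mean over cells, 0.67 thinned and 0.33 in naive-like members. For HDCA+CLP against CLP, the T cell receptor signalling median was 0.11 with size factors and 0.089 with 2 Cd4 UMIs. The type I interferon median was 0.11 with size factors and -0.00059 with any Ccl5. The cell cycle median was 0.27 with at least 200 UMIs, 0.23 thinned, -0.10 in naive-like members and -0.00037 without cycling members.

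Some directions turned, among them Wfdc17 (-3.12) and Bcl2a1b (-1.10), whose ratios of HDCA+CLP to CLP were past 2-fold. For CLP against Sham, Il7r was 0.080 as a mean over cells, 0.066 at the 5% mitochondrial limit, 0.077 thinned, 0.15 in naive-like members and 0.0055 without mixed members. For HDCA+CLP against CLP, Stmn1 (-0.015) and Wfdc17 (0.97) turned in naive-like members, Wfdc17 (1.04) and Bcl2a1b (0.31) without mixed members, and Emp3 (0.027) and Cd69 (-0.019) with any Ccl5. Cd69 was -0.036 thinned. With 2 Cd4 UMIs, Klf2 was 0.054, Cd69 -0.20 and Socs1 -0.020. With S100a8 and S100a9 under 0.5% of UMIs, Ccr7 was -0.0053, Il7r -0.017 and Lef1 -0.085. Of the other values of named genes, 968 moved by less than their counting interval and 183 moved by more. The shallowest group held 985017 UMIs, so a gene without a UMI there may be present at up to 3.05 CPM.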
